A study of Homo sapiens with 12 samples.

Results

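Cytosolic ribosomal protein genes were followed in HLE cells, an established line from a human hepatocellular carcinoma. The members were the genes whose symbol begins with RPL or RPS followed by a number, with the endings A, X, L and AL allowed, the P stalk genes, *RPSA* and *FAU*, provided that they reached at least 20 CPM (reads per 1000000 reads on genes) in all 12 libraries. Of 83 genes with such a symbol, 78 reached that level, among 26258 genes in the table and 6949 genes at that level. They comprised 47 genes of the large subunit and 31 genes of the small subunit.

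HLE cells received a control siRNA (siCtrl), siRNAs to YAP and TAZ together (siY/T) or an siRNA to ATF4 (siATF4), and were then kept in DMSO, the vehicle, or in 5 µM (by the labels) of Sorafenib (Srf), a multikinase inhibitor used against liver cancer. A figure legend of the study gives a slightly higher dose for its RNA sequencing of these knockdowns, and an exposure time where the labels give none. YAP and TAZ are the transcriptional co-activators of the Hippo pathway, and ATF4 is the transcription factor of the integrated stress response. The 6 groups were siCtrl DMSO, siY/T DMSO, siATF4 DMSO, siCtrl Srf, siY/T Srf and siATF4 Srf, with 2 libraries each, and all groups were cells of 1 line transfected with an siRNA, with no untransfected group. The labels number the libraries of a group but do not say that they came from separate cultures, and the study's methods speak of biological replicates in a larger number than the 2 libraries analysed here, so that the p-values below measure the spread between these libraries, which may be technical.

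The cytosolic ribosome is built from a large and a small subunit, each a core of ribosomal RNA carrying ribosomal proteins that are made in the cytoplasm, imported into the nucleolus and assembled there in near equal numbers. The large subunit holds the peptidyl transferase centre and the acidic P stalk that recruits translation factors, and the small subunit holds the decoding centre. Most mRNAs of these proteins start with a terminal oligopyrimidine (TOP) tract, a C followed by a run of C and T, through which mTOR signalling and the binding protein LARP1 set their translation and their stability. Free RPL5 and RPL11, bound to 5S ribosomal RNA, hold back MDM2 when assembly fails, and RPS6 is the substrate of S6 kinase.

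Transcript starts of the members are shown because the TOP tract is what these mRNAs share beyond their name. RefSeq start windows of GRCh38.p14 were matched for 63 of the 78 members, with 78 windows of 300 bases, 250 before and 50 after the annotated start. A TOP start, taken as a C at the annotated start followed by 4 bases that are each C or T, was present in 47 of the 78 windows (60.3%) and in 47 of the 63 genes. Among all 35116 such windows, 4.07% had a TOP start. The windows below run from 15 bases before the start to 14 bases after it, 5′ to 3′ on the coding strand, and the capitals mark the pyrimidine run from the start base where it begins with C and has 5 or more bases.
RPLP0, chr12:120201097-120201126, minus strand: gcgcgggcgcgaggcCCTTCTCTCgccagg
RPS6, chr9:19380222-19380251, minus strand: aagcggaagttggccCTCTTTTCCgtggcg
RPS3A, chr4:151099613-151099642, plus strand: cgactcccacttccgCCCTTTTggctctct
RPL13A, chr19:49487593-49487622, plus strand: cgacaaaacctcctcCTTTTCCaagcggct
RPL28, chr19:55385917-55385946, plus strand: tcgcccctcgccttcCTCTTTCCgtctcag
RPL31, chr2:101002274-101002303, plus strand: acaatccttcgcgctCTTCCTTTCCaactt
RPL24, chr3:101686704-101686733, minus strand: ttcccatgattctctCTTTCTTTTCgccat
RPS25, chr11:119018329-119018358, minus strand: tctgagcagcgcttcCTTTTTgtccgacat
RPL36AL, chr14:49620612-49620641, minus strand: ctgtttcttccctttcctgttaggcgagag
RPL3, chr22:39319609-39319638, minus strand: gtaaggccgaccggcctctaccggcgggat
*RPLP0* and *RPS6* stand for members that moved with the family, and the others for members that are described singly in a comparison below. The members lowest with siATF4 in DMSO, *RPL31*, *RPL24* and *RPS25*, carried pyrimidine runs of 10, 10 and 6 bases. At the annotated starts of *RPL36AL* and *RPL3*, the latter next lowest to *RPL31* with siATF4 in Srf, the runs had 3 and 4 bases.

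Other short motifs were searched on both strands in the same 300-base windows, as letters only. CCGGAAG, a core bound by ETS family factors, was in 26 of the 78 windows (33.3%), against 10.3% of all windows. GGAATG, the core letters of TEAD sites through which YAP and TAZ act, was in 6 windows (7.69%), against 14.03% of all. The composite ATF4 letters TGATGNAA were in 2 windows (2.56%), against 3.62% of all, and the E-box CACGTG was in 4 (5.13%), against 7.26%. Matches of different motifs can share letters, which was not checked, and a match is a description of the sequence.

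Reads were kept only where they mapped to 1 place in the genome, and ribosomal protein genes have many processed copies. The share of 75-base windows of each member's coding sequence that stands letter for letter elsewhere in GRCh37 had a median of 25.4%. The 27 members under 10% had a median level per length of 1423 CPM per kb of coding sequence, averaged over the 12 libraries. The 26 members from 10% to under 50% had a median of 952 CPM per kb, and the 25 members at 50% or more had a median of 622 CPM per kb. The part of shared sequence in the levels was not tested, and comparisons below are made within a gene between libraries. *RPS26*, a small subunit protein at the mRNA exit, shared all of its windows and lay between 1.99 and 5.19 CPM, under the floor. The other symbols left out were *RPL10L* and *RPL3L*, tissue-restricted copies with at most 0.0428 and 0.0190 CPM, *RPL39L* at 11.4 to 27.5 CPM and *RPS27L* at 18.9 to 29.4 CPM. Just inside the floor lay *RPL7*, at 34.8 to 60.7 CPM with 96.0% of its windows elsewhere, and *RPL36AL*, at 64.3 to 82.7 CPM.

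The libraries held 41408348 to 53619732 reads on genes, and 100% of the CPM were whole multiples of 1 read within 0.001 read. With siY/T, *YAP1* had log2 fold changes of −2.41 ± 0.076 (SE, DMSO) and −2.47 ± 0.076 (Srf; adjusted p = 2.5e-10 and 3.3e-10), and that of *WWTR1*, which encodes TAZ, was −1.495 and −1.52. That of *ATF4* with siATF4 was −1.33 ± 0.044 in DMSO and −2.47 ± 0.044 in Srf (adjusted p = 5.7e-11 and 1.4e-12). *WWTR1* was also at −0.70 with siATF4 in DMSO, and *ATF4* at −0.30 and −0.63 with siY/T. Of the hepatocyte markers *ALB*, *AFP*, *APOA1*, *APOB*, *TTR*, *HNF4A* and *TF*, none exceeded 0.117 CPM in any library and *SERPINA1* lay between 0.0214 and 2.32 CPM, whereas *KRT8* and *KRT18* reached 655 to 2558 and 312 to 1089 CPM, and *VIM*, a mesenchymal marker, reached 1952 to 2916 CPM. The other epithelial markers *EPCAM* and *CDH1* lay at 0.15 to 0.701 and 0.0396 to 7.93 CPM, and the other mesenchymal markers *CDH2* and *FN1* at 3.77 to 6.92 and 18.8 to 79.6 CPM. Leukocyte and endothelial markers stayed at or below 0.644 CPM.

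The ribosomal protein genes together took a smaller share of the reads with siY/T and a larger share with siATF4. In siCtrl DMSO cells the 78 genes summed to 4.01% and 4.06% of the reads on genes in the 2 libraries. With siY/T in DMSO the share was 3.50% and 3.22%, and with siATF4 in DMSO it was 5.00% and 4.89%. Neither knockdown overlapped with siCtrl in DMSO. Under Srf, siCtrl cells had shares of 4.36% and 4.41%, siY/T cells of 3.89% and 4.11%, and siATF4 cells of 4.71% and 4.94%, again without overlap between siCtrl and a knockdown. The siY/T Srf libraries lay on either side of the siCtrl DMSO libraries. As a ratio to siCtrl DMSO, the mean share in DMSO was 0.832 with siY/T and 1.22 with siATF4. In Srf the ratio to the same group was 1.09 with siCtrl, 0.991 with siY/T and 1.196 with siATF4. These are shares of each library's reads and were given no test. In RNA from whole cultures, fewer cells with high levels and less of these mRNAs per cell cannot be told apart.

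**Figure D1:**
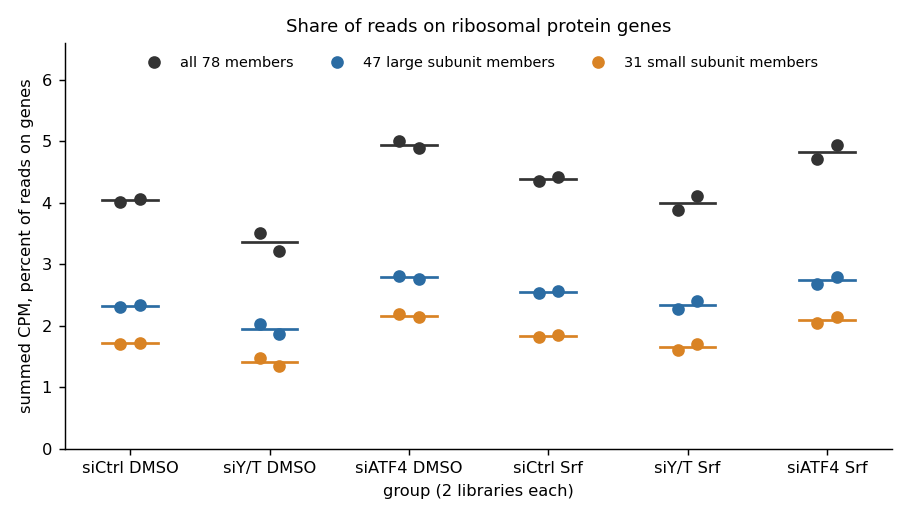
Summed CPM of the ribosomal protein genes as a percent of reads on genes (y axis) in the 6 groups (x axis), for all 78 members, the 47 of the large subunit and the 31 of the small subunit; each dot is a library and each bar the mean of 2. The dots of all members lie lowest in siY/T DMSO cells, at 3.50% and 3.22%, and highest in siATF4 DMSO cells, at 5.00% and 4.89%.

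The siY/T knockdown was compared with siCtrl to ask what loss of YAP and TAZ does without and with the drug. In DMSO, 69 of the 78 members were lower and 0 were higher at an adjusted p under 0.05 (limma on log2(CPM + 0.5), adjusted with Benjamini-Hochberg over 13515 genes). Among all genes tested, 22.8% were lower and 37.3% were higher. Of the 6949 genes at 20 CPM in all libraries, 29.5% were lower and 33.7% higher, against 88.5% and 0% of the members. At an unadjusted p under 0.05, 0 members were higher, and edgeR and DESeq2 also called 0. The median log2 fold change of the members was −0.28, against 0.07 over all genes tested, and 77 members lay below 0. The falls were modest in size, a median of 17.5%, and the fold rule of the study's methods (a log2 change of 0.58 or more in either direction at an unadjusted p under 0.05), which 14.6% of all genes met, was met by 0 members. The median of −0.28 depended on the setting. It was −0.35 after TMM scaling and by DESeq2, −0.34 without siY/T DMSO replicate 1 and −0.21 without siY/T DMSO replicate 2.

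The largest fall was that of *RPL23*, a large subunit protein that also binds MDM2. Its libraries were at 669 and 700 CPM in siCtrl DMSO cells and at 481 and 442 CPM in siY/T DMSO cells, without overlap. The log2 fold change was −0.57 ± 0.047 (SE, adjusted p = 4.6e-07). *RPL6* went from 583 and 598 CPM to 410 and 394 CPM (−0.55 ± 0.043, adjusted p = 2.6e-07), and *RPL7*, the least abundant member by CPM, from 48.8 and 55.4 CPM to 34.8 and 35.9 CPM (−0.55 ± 0.074). *RPL5*, a partner of 5S ribosomal RNA, fell by 0.53 ± 0.042 (adjusted p = 3.4e-07), whereas *RPL11*, the other protein partner of that complex, fell by 0.19 ± 0.049 (adjusted p = 0.0040). *RPS6* fell by 0.43 ± 0.045, from 700 and 702 CPM to 534 and 505 CPM.

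Of the P stalk genes, *RPLP0*, which anchors the stalk, went from 1505 and 1497 CPM to 1291 and 1173 CPM (−0.29 ± 0.049, adjusted p = 0.00025). *RPLP2* fell by 0.22 ± 0.052 (adjusted p = 0.0025), and *RPLP1* fell by 0.16 ± 0.055 (adjusted p = 0.024), a call that was lost without the filter on low values, with quantile normalization, in a fit of only the groups compared, without siCtrl DMSO replicate 1 and without siY/T DMSO replicate 2 (adjusted p = 0.063, 0.36, 0.078, 0.16 and 0.15). *RPL19*, the reference gene of the study's quantitative PCR, went from 1009 and 1020 CPM to 872 and 822 CPM (−0.26 ± 0.047, adjusted p = 0.00034). The 9 members that did not pass the test included *FAU*, *RPL13A*, *RPL28* and *RPS27*, with log2 fold changes of −0.12, −0.07, −0.03 and −0.02.

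In Srf, siY/T lowered fewer of the genes. Against siCtrl Srf, 35 members were lower and 1 was higher, beside 18.8% and 30.2% of all genes tested, and the median log2 fold change was −0.13 (−0.084 without siY/T Srf replicate 1), against 0.05 over all genes. At 20 CPM in all libraries, 20.5% of genes were lower and 30.9% higher, with a median of 0.04. The members' shares were 44.9% and 1.28%. The study's fold rule, met by 9.95% of all genes, was met by 0 members. Among the largest falls were those of *RPL35* (240 and 251 CPM against 184 and 197 CPM, −0.36 ± 0.052, adjusted p = 8.9e-05) and *RPL8* (−0.32 ± 0.049, adjusted p = 0.00017). Both belong to the large subunit. The 1 member that rose was *RPS27*, by 0.19 ± 0.073 (adjusted p = 0.043), a gene with all of its windows elsewhere in the genome, and its call was lost in 14 of the 22 alternatives, with adjusted p = 0.13 after TMM scaling and 0.14 by DESeq2. Among these were 9 of the 12 fits that left out a library, and without siY/T DMSO replicate 1, siY/T DMSO replicate 2 or siY/T Srf replicate 1 the count of higher members was 2. The count of 35 was 19 without siY/T Srf replicate 1 and 20 without siCtrl Srf replicate 2. The 2 siY/T comparisons use different siCtrl libraries, and the difference between them is tested below as a difference between Srf effects.

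**Figure D2:**
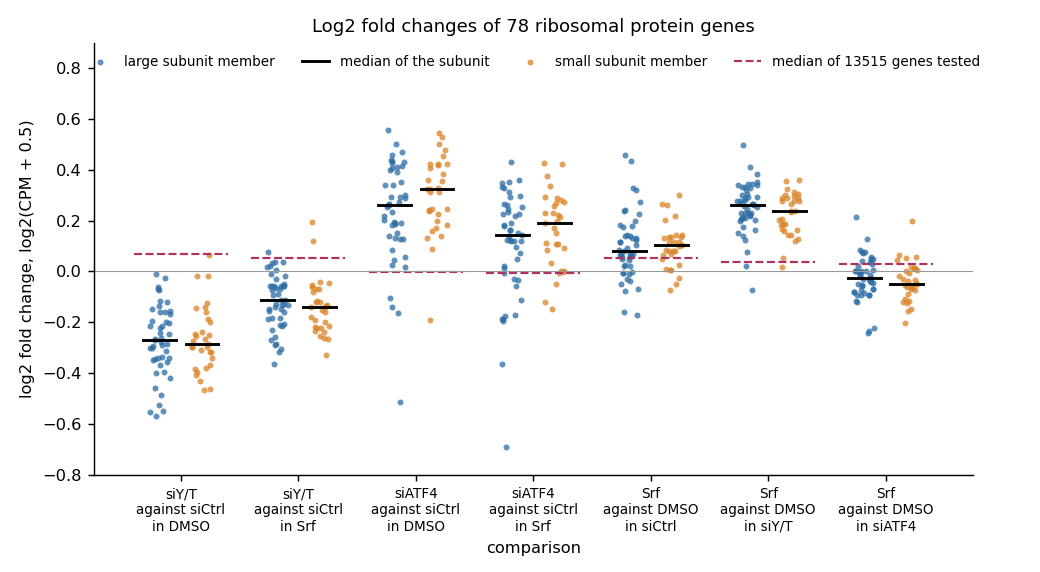
Log2 fold changes on the log2(CPM + 0.5) scale (y axis) of the 78 members in 7 comparisons (x axis); each dot is a gene, black bars are medians of each subunit and dashed lines the median of 13515 genes tested. Dots lie mostly below 0 with siY/T (69 and 35 lower) and mostly above 0 with siATF4 (66 and 44 higher), with *RPL31* the lowest dot of both siATF4 comparisons at −0.51 and −0.69.

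The siATF4 knockdown was compared with siCtrl in the same way. In DMSO, 66 members were higher and 5 were lower, beside 33.4% and 34.4% of all genes tested, and the median log2 fold change was 0.27, a rise of 20.6%, against −0.00 over all genes. At 20 CPM in all libraries, 36.8% of genes were higher and 32.9% lower, with a median of 0.02. The members' shares were 84.6% and 6.41%. The study's fold rule, met by 22.7% of all genes, was met by 0 members. Among the largest rises were those of *RPL10*, which sits beside the peptidyl transferase centre, and *RPS2*, a small subunit protein. *RPL10* went from 909 and 908 CPM to 1351 and 1324 CPM (0.56 ± 0.047, adjusted p = 2.9e-07) and *RPS2* from 1375 and 1353 CPM to 1994 and 1980 CPM (0.54 ± 0.049, adjusted p = 5.0e-07). The 2 libraries of each group lay close together for both genes, and the groups did not overlap.

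The P stalk rose as a set, *RPLP0* by 0.50 ± 0.049, *RPLP1* by 0.41 ± 0.055 and *RPLP2* by 0.35 ± 0.052 (adjusted p = 1.1e-06, 2.4e-05 and 5.2e-05). *RPL5* rose by 0.34 ± 0.042, *RPS6* by 0.31 ± 0.045 and *RPL19* by 0.43 ± 0.047, the last from 1009 and 1020 CPM to 1363 and 1373 CPM. Among genes whose protein is made as a fusion or has a role outside the ribosome, *RPS27A*, which carries ubiquitin, rose by 0.41 ± 0.047, *FAU*, which carries a ubiquitin-like domain, rose by 0.31 ± 0.059, and *RPSA*, also known as the laminin receptor, rose by 0.42 ± 0.050. *RPL3*, which shapes the peptidyl transferase centre, did not pass the test, at 918 and 921 CPM in siCtrl DMSO cells and 935 and 925 CPM in siATF4 DMSO cells (0.02 ± 0.041, adjusted p = 0.73).

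*RPL31*, a large subunit protein at the rim of the peptide exit tunnel, went against the family. It lies on GRCh37 at chr2:101618691-101640494 on the plus strand. Its libraries were at 310 and 320 CPM in siCtrl DMSO cells and at 228 and 213 CPM in siATF4 DMSO cells (−0.51 ± 0.052, adjusted p = 1.5e-06). In Srf they were at 361 and 362 CPM in siCtrl cells and at 223 and 224 CPM in siATF4 cells (−0.69 ± 0.052, adjusted p = 6.1e-08). All 4 siATF4 libraries thus lay below all 8 others, of which the lowest was at 268 CPM in siY/T DMSO cells. With siY/T, *RPL31* differed by −0.16 ± 0.052 in DMSO (adjusted p = 0.019) and by −0.02 ± 0.052 in Srf (adjusted p = 0.81). Of its coding windows, 12% stand elsewhere in the genome.

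The 4 other members lower with siATF4 in DMSO were *RPS25*, *RPL24*, *RPL4* and *RPL36AL*, with log2 fold changes of −0.19 ± 0.058, −0.16 ± 0.052, −0.14 ± 0.045 and −0.11 ± 0.044 (adjusted p = 0.011, 0.014, 0.014 and 0.045). RPS25 is needed for internal ribosome entry by several viral RNAs, and RPL24 forms part of the bridge between the subunits. These falls were small: the count of 5 was 3 without siCtrl DMSO replicate 1 and 1 without siCtrl DMSO replicate 2 or without siATF4 DMSO replicate 2. *RPL31* passed the test in each of the 22 alternatives in both siATF4 comparisons.

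In Srf, siATF4 raised 44 members and lowered 8, beside 35.8% and 37.4% of all genes tested. The median log2 fold change was 0.16, beside −0.01 for all genes. At 20 CPM in all libraries, 43.5% of genes were higher and 30.3% lower, with a median of 0.07. The members' shares were 56.4% and 10.3%. The largest rises were those of *RPL27* (447 and 441 CPM against 590 and 608 CPM, 0.43 ± 0.059), *RPS18* (0.43 ± 0.052) and *RPS7* (0.42 ± 0.046), with adjusted p of 1.9e-05, 6.5e-06 and 2.4e-06. Below siCtrl, after *RPL31*, came *RPL3*, at 1254 and 1269 CPM in siCtrl cells and 952 and 1009 CPM in siATF4 cells (−0.36 ± 0.041, adjusted p = 3.0e-06), and *RPL7A* (−0.19 ± 0.041, adjusted p = 0.00081). The 5 others lower were *RPL13A*, *RPL23A*, *RPL28*, *RPL36AL* and *RPS9*, between −0.19 and −0.15. By the study's fold rule, met by 28.9% of all genes, 1 member passed, *RPL31*. The siATF4 and siY/T comparisons within a treatment share their siCtrl libraries.

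**Figure D3:**
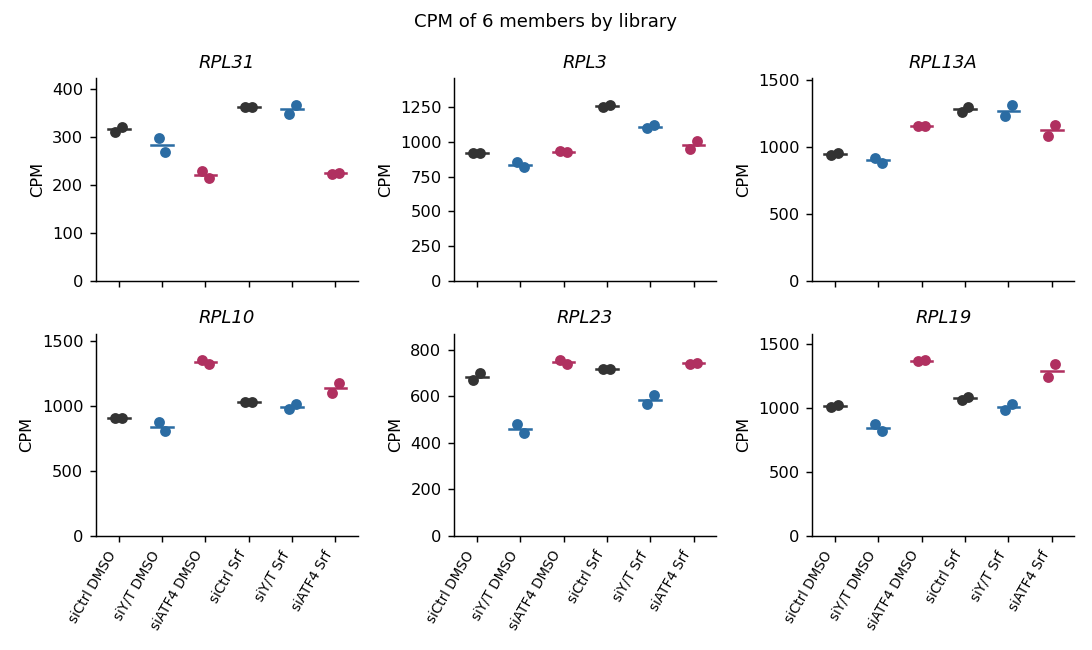
CPM (y axes, each from 0) of *RPL31*, *RPL3*, *RPL13A*, *RPL10*, *RPL23* and *RPL19* in the 6 groups (x axis); each dot is a library and each bar the mean of 2, in dark grey for siCtrl, blue for siY/T and dark red for siATF4. *RPL31* is lowest in the 4 siATF4 libraries (213 to 228 CPM), *RPL3* and *RPL13A* are higher in Srf in siCtrl and siY/T cells, and *RPL10* and *RPL19* are highest in siATF4 DMSO cells.

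The effect of Sorafenib was examined within each siRNA. In siCtrl cells, 23 members were higher and 2 were lower in Srf than in DMSO, beside 36.3% and 26.9% of all genes tested. The median log2 fold change was 0.09, against 0.05 over all genes, and 0.026 after TMM scaling. Among the 6949 genes at 20 CPM in all libraries, 27.96% were higher and 36.4% lower, with a median of −0.04, against 29.5% and 2.56% of the members. The study's fold rule was met by 0 members and by 17.5% of all genes. The split of 23 higher and 2 lower was 14 and 4 after TMM scaling and 40 and 1 after quantile normalization, and the count of 23 was 39 without either siY/T DMSO library.

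The largest rises within siCtrl cells were those of 3 large subunit genes. *RPL3* went from 918 and 921 CPM in DMSO to 1254 and 1269 CPM in Srf (0.46 ± 0.041, adjusted p = 7.6e-07), *RPL13A*, which also acts outside the ribosome in silencing inflammatory mRNAs, from 937 and 957 CPM to 1263 and 1299 CPM (0.44 ± 0.047, adjusted p = 4.2e-06), and *RPL13* from 374 and 382 CPM to 466 and 482 CPM (0.33 ± 0.052, adjusted p = 0.00012). For all 3 genes the Srf libraries lay above the DMSO libraries without overlap. The 2 members that fell were *RPL35* (−0.17 ± 0.052, adjusted p = 0.012) and *RPL36AL* (−0.16 ± 0.044, adjusted p = 0.0058). The count of 2 was 1 without siCtrl Srf replicate 1, siCtrl DMSO replicate 2 or siCtrl Srf replicate 2. *RPS6*, *RPL5* and *RPL19* were at 0.07, 0.02 and 0.08 (adjusted p = 0.20, 0.64 and 0.14).

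In siY/T cells the rise was broad. Against DMSO, Srf raised 69 members and lowered 0, beside 29.5% and 23.5% of all genes tested. At an unadjusted p under 0.05, 0 members were lower, edgeR and DESeq2 called 0 lower, and limma called 1 lower without siY/T DMSO replicate 2. The median log2 fold change was 0.25, against 0.04 over all genes. At 20 CPM in all libraries, 25.8% of genes were higher and 30.6% lower, against 88.5% and 0% of the members. Without siY/T DMSO replicate 1 the members' median was 0.32, and without siY/T DMSO replicate 2 it was 0.19. The study's fold rule was met by 0 members and by 9.97% of all genes. *RPL13A* rose from 920 and 883 CPM to 1229 and 1316 CPM (0.50 ± 0.047, adjusted p = 2.8e-06), *RPL3* by 0.41 ± 0.041 (adjusted p = 4.1e-06) and *RPL28* by 0.38 ± 0.051 (adjusted p = 4.7e-05). *RPL5* rose by 0.29 ± 0.042, *RPS6* by 0.28 ± 0.045 and *RPL19* by 0.25 ± 0.047. The 9 members that did not pass were *FAU*, *RPL27*, *RPL35*, *RPL36AL*, *RPL38*, *RPL8*, *RPS15*, *RPS21* and *RPSA*.

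In siATF4 cells few members differed between Srf and DMSO. Of the 78 members, 2 were higher and 7 lower, shares below the 27.9% and 22.4% of all genes tested, and the median was −0.03, against 0.03 over all genes. At 20 CPM in all libraries, 27.1% of genes were higher and 26.3% lower, against 2.56% and 8.97% of the members. The study's fold rule was met by 0 members and by 8.63% of all genes. *RPL4* rose from 1277 and 1235 CPM to 1443 and 1469 CPM (0.21 ± 0.045, adjusted p = 0.0017) and *RPS25* rose by 0.20 ± 0.058 (adjusted p = 0.012). The largest falls were those of *RPL36AL* (−0.24 ± 0.044, adjusted p = 0.00052), *RPL10* (1351 and 1324 CPM to 1097 and 1175 CPM, −0.24 ± 0.047, adjusted p = 0.0011) and *RPL35* (−0.22 ± 0.052, adjusted p = 0.0032). *RPS20*, *FAU*, *RPS2* and *RPS27A* were the other 4 lower, between −0.20 and −0.12. The counts rest on small changes: 7 became 14 without either siY/T DMSO library, 13 without siATF4 Srf replicate 2, and 3 or 4 without any other library of siCtrl or siATF4, and the 2 higher became 1 without siATF4 Srf replicate 1 or siATF4 DMSO replicate 2. After quantile normalization the split was 4 higher and 6 lower.

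Whether Srf acted differently after a knockdown was tested as the difference of the 2 Srf effects. For siY/T against siCtrl, 17 members had a larger log2 fold change with siY/T and 0 a smaller one, beside 7.81% and 14.2% of all genes tested, and the median difference was 0.14, against −0.02 over all genes. At an unadjusted p under 0.05, 1 member was smaller, and edgeR and DESeq2 called 0. Of genes at the 20 CPM floor, 11.5% were larger and 12.8% smaller, against 21.8% and 0% of the members. The largest differences were those of *RPS3A* (0.34 ± 0.059, adjusted p = 0.0020), *RPS27A* (0.28 ± 0.066, adjusted p = 0.0095) and *RPL39* (0.28 ± 0.074, adjusted p = 0.017). The call of *RPL39* was lost without siCtrl DMSO replicate 2, siCtrl Srf replicate 2 or siY/T Srf replicate 2. Its difference in these fits was 0.26, 0.27 and 0.23. All coding windows of *RPL39* and most of those of *RPS3A* stand elsewhere in the genome. *RPS3A* was at 246 and 250 CPM in siCtrl DMSO, 198 and 183 CPM in siY/T DMSO, 243 and 244 CPM in siCtrl Srf and 234 and 239 CPM in siY/T Srf cells, so that siY/T DMSO was the lowest of these 4 groups, without overlap. The count of 17 was 47 without siY/T DMSO replicate 1, and 8, 10, 5, 7 and 6 without siCtrl DMSO replicate 1, siCtrl Srf replicate 1, siCtrl DMSO replicate 2, siCtrl Srf replicate 2 and siY/T Srf replicate 2.

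For siATF4 against siCtrl, 20 members had a lower log2 fold change with Srf in siATF4 cells and 0 a higher one, beside 21.8% and 19.3% of all genes tested. The share of members that were lower, 25.6%, was thus close to that of all genes tested. Of genes at the 20 CPM floor, 17.5% were lower and 26.8% higher, with a median of 0.05. The median difference was −0.13, against −0.01 over all genes. At an unadjusted p under 0.05, 0 members were higher, and edgeR and DESeq2 called 0 higher. *RPL13A* had the largest difference (−0.48 ± 0.067, adjusted p = 0.00013). It was at 1158 and 1154 CPM in siATF4 DMSO cells and at 1083 and 1165 CPM in siATF4 Srf cells, which overlap, while the siCtrl libraries had risen. *RPL10* (−0.42 ± 0.067, adjusted p = 0.00036), *RPL28* (−0.39 ± 0.072, adjusted p = 0.00092) and *RPL3* (−0.38 ± 0.058, adjusted p = 0.00023) followed. The count of 20 was 35 without either siY/T DMSO library and 10, 10, 13 and 11 without siATF4 DMSO replicate 1, siATF4 Srf replicate 1, siCtrl DMSO replicate 2 and siCtrl Srf replicate 2. Both differences use the same siCtrl libraries.

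Base composition moved with these differences. The GC content of the members' coding sequences ranged from 42.5% to 63.0% with a median of 51.4%. Across the 78 members, the difference of Srf effects for siY/T had a Pearson r of −0.78 with GC content, and that for siATF4 had an r of −0.60. Across 12110 genes with a coding sequence, the same correlations were −0.43 and −0.34. In the plain comparisons, r across the members was 0.52 for Srf in siCtrl cells and 0.46 for siY/T in DMSO, and between −0.21 and 0.17 in the other 5. The points share their libraries and genes are not independent replicates, so that these values are descriptions. The part of base composition in the results was not tested.

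**Figure D4:**
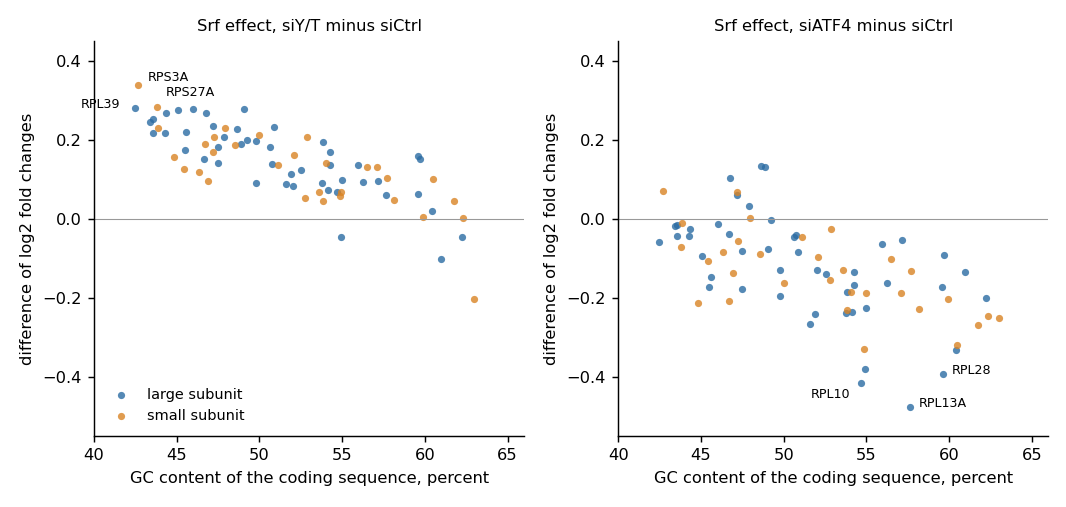
Difference of Srf effects on the log2 scale (y axes) against GC content of the coding sequence in percent (x axes) for the 78 members, siY/T minus siCtrl on the left and siATF4 minus siCtrl on the right; each dot is a gene, coloured by subunit. Members of low GC content such as *RPS3A* lie highest on the left (0.34), and *RPL13A*, *RPL10* and *RPL28* lie lowest on the right (−0.48, −0.42 and −0.39).

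The 2 subunits moved alike to within about 0.06 on the log2 scale. In the 7 comparisons the median log2 fold changes of the 47 large and 31 small subunit members were −0.27 and −0.29 for siY/T in DMSO, −0.11 and −0.14 for siY/T in Srf, 0.26 and 0.32 for siATF4 in DMSO, and 0.14 and 0.19 for siATF4 in Srf. For Srf against DMSO they were 0.08 and 0.10 with siCtrl, 0.26 and 0.24 with siY/T, and −0.03 and −0.05 with siATF4. The large subunit fell by less and rose by less than the small in both knockdowns, by 0.02 to 0.06. In DMSO the calls were shared between the subunits. There, 42 of 47 large and 27 of 31 small subunit members were lower with siY/T, and 38 and 28 higher with siATF4. In Srf the calls with siY/T were less even, with 17 of 47 large and 18 of 31 small subunit members lower. With siATF4 in Srf, 26 and 18 were higher. Of the 5 and 8 members lower with siATF4, 4 and 7 belonged to the large subunit. The spread of the fold changes with siATF4 in Srf was an SD of 0.21 in the large and 0.15 in the small subunit.

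The balance of the subunits was also read in each library, as the mean log2(CPM + 0.5) of the large minus that of the small subunit members. With siCtrl it was −0.16 and −0.15 in DMSO and −0.16 and −0.16 in Srf, and with siY/T it was −0.17 and −0.15 in DMSO and −0.13 and −0.14 in Srf. In siATF4 cells it was −0.23 and −0.23 in DMSO and −0.21 and −0.22 in Srf. The 4 siATF4 libraries were lower than the 8 others without overlap. Neither the medians nor the balance were given a test.

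The members moved together across the libraries. On the log2 scale, the Pearson r of a member with the mean of the other members over 12 libraries had a median of 0.95, and 56 of the 78 (71.8%) exceeded 0.9. Among the 6871 other genes at 20 CPM in all libraries, the median r with the members' mean was −0.00 and 0.83% exceeded 0.9. The first principal component of the members' centred values held 85.7% of their variance, with loadings of 1 sign in 76 members, whereas that of the other genes held 67.7%. The points of each r share the libraries and the 6 groups.

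Movement was shared between the 2 libraries of a group as well. In siY/T DMSO cells, 76 of the 78 members were lower in library 2 than in library 1, with a median difference of −0.13, while the median over all genes tested was −0.01. In siY/T Srf cells, 75 members were higher in library 2, by a median of 0.09. In siATF4 Srf cells 67 were higher (0.06), and in siATF4 DMSO cells 69 were lower (−0.03). In siCtrl cells the medians were 0.02 in DMSO and 0.01 in Srf. In deviations from group means the 2 libraries of a group mirror each other, so each r rests on 1 difference per group. After group means were subtracted, the median r of a member with the others was 0.91, against 0.13 for the other genes. Members called are therefore not independent of each other. The siY/T DMSO library 2, which had the fewest reads (41408348), also had the lowest share on these genes.

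**Figure D5:**
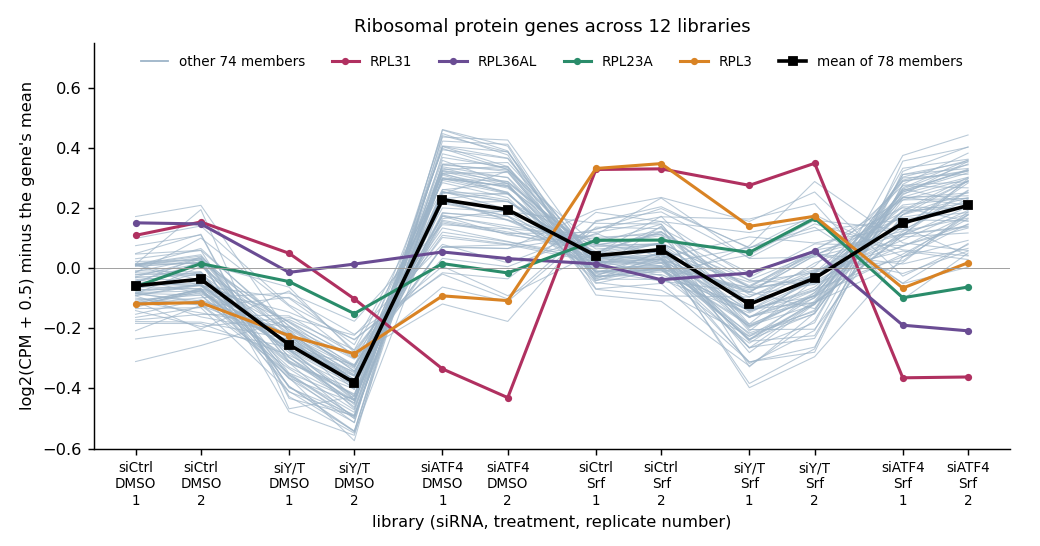
Log2(CPM + 0.5) of each of the 78 members minus its own mean (y axis) in the 12 libraries (x axis); the black line is the mean of the members and the coloured lines are *RPL31*, *RPL36AL*, *RPL23A* and *RPL3*. The grey-blue lines are the other 74 members, and the mean is lowest in siY/T DMSO and highest in siATF4 DMSO cells, while *RPL31* lies lowest in the 4 siATF4 libraries.

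The members least like the others were *RPL31* (r = −0.47), *RPL36AL* (r = −0.32) and *RPL23A* (r = 0.22), followed by *RPL3* (0.32), *RPS25* (0.33) and *RPL7A* (0.41). *RPL31* and *RPL23A* followed the others between libraries of 1 group, with an r of 0.88 and 0.92 after group means were subtracted, and *RPL36AL* did not (0.07). Each of these values rests on 1 difference per group. Among the most like were *RPS3* (0.99) and *RPL41* (0.99). Of the genes that are no members, the 5 nearest to the members' mean were *RPS14P3* (r = 0.99), *RPL17-C18orf32* (0.97), *RPL21P28* (0.97), *RPSAP9* (0.96) and *RPSA2* (0.96), which are copies of members or a readthrough of one and could share reads with them. Mean levels were nearly equal for *RPL17-C18orf32* and *RPL17* (337 and 338 CPM) and for *RPL21P28* and *RPL21* (152 and 153 CPM). Whether the same reads were counted for both genes of a pair was not tested. Next by r came *MIR4426* (0.96), *RACK1* (0.95), a scaffold protein of the small subunit, and *SNHG29* (0.95), a host gene of small nucleolar RNAs, named here after their values were seen.

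Paralogue pairs were compared within each pair. *RPL36A*, with all of its coding windows elsewhere in the genome, rose with siATF4 by 0.30 ± 0.056 in DMSO and 0.36 ± 0.056 in Srf, while its retrocopy *RPL36AL* fell by 0.11 ± 0.044 and 0.19 ± 0.044. The call of *RPL36AL* in DMSO was lost in 12 of 22 alternatives, among them TMM scaling, quantile normalization and DESeq2 (adjusted p = 0.056, 0.10 and 0.091). *RPS27* rose by 0.25 ± 0.073 with siATF4 in DMSO, a call lost without siATF4 DMSO replicate 1 or siCtrl DMSO replicate 2 (adjusted p = 0.051 and 0.082), and *RPS27L*, a target of p53, was at −0.44 ± 0.075 (adjusted p = 0.00017), from 26.3 and 28.1 CPM to 21.0 and 18.9 CPM. *RPS27L* was at −0.43 ± 0.075 in Srf.

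*RPL22L1* moved in the direction of most members in both DMSO knockdown comparisons, at 18.4 and 17.997 CPM in siCtrl DMSO, 12.4 and 10.7 CPM in siY/T DMSO and 28.1 and 28.9 CPM in siATF4 DMSO cells (−0.63 ± 0.080 and 0.63 ± 0.080). It fell with Srf in siCtrl cells by 0.28 ± 0.080 (adjusted p = 0.0080), where the members' median was 0.09, and with siY/T in Srf it was at 0.10 ± 0.080 (adjusted p = 0.31). *RPL22* fell by 0.20 ± 0.049 with siY/T in DMSO, and with siATF4 it was at 0.06 ± 0.049 (adjusted p = 0.31). *RPL7L1*, which works in ribosome assembly, fell by 0.38 ± 0.047 with siY/T in DMSO and rose with siATF4 by 0.64 ± 0.047 in DMSO and 0.78 ± 0.047 in Srf. Unlike most members it fell with Srf in siCtrl cells, by 0.42 ± 0.047. *RPL39L* rose with siATF4 by 0.49 ± 0.072 and 0.79 ± 0.072 and fell with Srf in siCtrl cells by 0.47 ± 0.072. *RPL26L1* fell with siY/T in DMSO by 0.50 ± 0.070 and with Srf in siCtrl cells by 0.56 ± 0.070, where *RPL26* was at 0.07 ± 0.048 (adjusted p = 0.24). In Srf, *RPL26L1* was at 29.9 and 34.2 CPM with siY/T, against 39.6 and 38.0 CPM with siCtrl. Unlike most members it was not higher with siATF4 in DMSO, at 52.1 and 51.6 CPM against 56.6 and 58.4 CPM with siCtrl. *RPL3L*, the muscle paralogue of *RPL3*, had 1 read in 1 library and 0 in 11, and no fold change is given.

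The wider translation machinery was read from gene lists, whose counts stand beside the same shares of all genes as those of the members. With siY/T in DMSO 37.3% of all genes were higher and 22.8% lower, and with siATF4 in DMSO 33.4% and 34.4%. Of 17 other TOP mRNAs and ribosome-associated genes (elongation and initiation factors, *NPM1*, *TPT1*, *RACK1* and others), 0 were higher and 9 lower with siY/T in DMSO (median −0.13), and 10 were higher and 5 lower with siATF4 in DMSO (median 0.22). In Srf, 3 were higher and 3 lower with siY/T (median −0.02), beside 30.2% and 18.8% of all genes tested. With siATF4 in Srf, 5 were higher and 7 lower (median −0.02), beside 35.8% and 37.4%. *EEF1A1* and *EEF2* were among the 7 lower. With Srf, 12 were higher and 1 lower in siCtrl cells (median 0.16) and 14 were higher and 0 lower in siY/T cells (median 0.32), beside 36.3% and 26.9%, and 29.5% and 23.5%, of all genes tested. *NPM1*, a nucleolar assembly factor, fell by 0.87 with siY/T in DMSO, and *EEF1B2* rose by 0.77 with siATF4 in DMSO. The elongation factors *EEF1A1* and *EEF2* rose with Srf in siCtrl cells by 0.40 ± 0.046 and 0.56 ± 0.045, and the Srf effect with siATF4 minus that with siCtrl was −0.42 and −0.46.

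Of 39 ribosome biogenesis genes, 34 were lower and 1 higher with siY/T in DMSO (median −0.44), and 36 were higher and 1 lower with siATF4 in both DMSO (median 0.46) and Srf (median 0.70). Of all genes tested, 22.8% were lower with siY/T in DMSO, and 33.4% and 35.8% were higher with siATF4 in DMSO and in Srf. These were the directions of most ribosomal protein genes in the same comparisons. With Srf in siCtrl cells, 34 biogenesis genes were lower and 1 higher (median −0.44), beside 26.9% and 36.3% of all genes tested. *LYAR*, *PNO1* and *MRTO4*, factors of subunit maturation, were there at −0.93, −0.83 and −0.79. Of the ribosomal protein genes 23 were higher and 2 lower in that comparison. Their share higher, 29.5%, was near the 27.96% of all genes at 20 CPM in all libraries. In siY/T cells Srf lowered 23 biogenesis genes and raised 5 (median −0.17), beside 23.5% and 29.5% of all genes tested, where 69 ribosomal protein genes rose.

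Mitochondrial ribosomal proteins are nuclear genes of a separate ribosome, and 64 of them reached 20 CPM in all libraries. With siY/T in DMSO 33 were lower and 4 higher (median −0.14), and with siATF4 40 were higher and 5 lower in DMSO (median 0.17) and 47 and 5 in Srf (median 0.28). The shares of all genes tested were 22.8% lower with siY/T in DMSO, and 33.4% and 35.8% higher with siATF4. Those of all genes at 20 CPM in all libraries were 29.5%, 36.8% and 43.5%. With Srf in siCtrl cells 39 were lower and 5 higher (median −0.20), beside 26.9% and 36.3% of all genes tested. The cytosolic split there was 2 and 23, with a share higher (29.5%) near the 27.96% of all genes at that level. With Srf in siY/T cells 34 were lower and 6 higher (median −0.14), beside 23.5% and 29.5% of all genes tested. The cytosolic split there was 0 and 69. The lists are described by counts and medians, and no difference between them was tested.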

How the data were processed

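RNA of 12 libraries was prepared with a stranded mRNA kit and sequenced over 75 cycles by the labels, the length used for the windows of shared sequence, whereas the methods name a total RNA kit and slightly longer reads. The authors used STAR to place single-end reads on hg19, with only uniquely mapping reads retained, took QuasR counts over RefSeq exons and deposited CPM values, scaled to 1000000 reads on genes. The strand setting of the counting is not given in the sources used here. Every CPM was a whole multiple of 1 read (100% within 0.001 read), and whole reads were recovered for count tests. Libraries held 41408348 to 53619732 reads, and all 12 columns were mapped.

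Entrez identifiers were named from RefSeq (GRCh38.p14, names only, 26111 of 26258). Values were taken as log2(CPM + 0.5), which understates changes of low genes. Genes reaching 1 CPM in 2 or more libraries (13515) entered a limma model (limma 3.58.1, R 4.3.3) that had a coefficient for each group and a variance trend. The 6 groups shared 1 estimate of the spread of each gene. The p-values were adjusted by Benjamini-Hochberg over all genes tested. All tests are two-sided, and a gene was called at an adjusted p under 0.05. On the recovered reads edgeR 4.0.16 called 8112 genes for siY/T in DMSO and limma 8122. Other alternatives were DESeq2 1.42.0, TMM, quantile normalization, pseudocounts of 0.1 and 1, other filters, a replicate block and each library left out. Scripts were tested on simulated data.

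The members and lists were chosen with earlier results of these data known. Named genes were the siRNA targets, the 3 largest rises and falls among called members in each comparison, genes of fixed roles, paralogue pairs, the 5 other genes nearest the members' mean, the 3 members least like the rest and up to 4 genes per list. Coding sequences and GRCh37 positions came from GENCODE v44lift37. Some members that this rule names are not reported here. Figures were drawn with matplotlib 3.10.9.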

Additional observations from a re-analysis of the deposited data

Results flagged for a closer look

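Results are given here where the effect of Sorafenib differed between siRNAs by a test of the difference itself in limma. For siY/T against siCtrl, 17 ribosomal protein genes had such a difference, and the largest were *RPS3A* (0.34), *RPS27A* (0.28) and *RPL39* (0.28). Their log2 fold changes with Srf were higher in siY/T cells. So were those of 7.81% of all genes tested and 11.5% of genes at the 20 CPM floor. The call of *RPL39* was lost without siCtrl DMSO replicate 2, siCtrl Srf replicate 2 or siY/T Srf replicate 2. All coding windows of *RPL39* and most of those of *RPS3A* stand elsewhere in the genome. For siATF4 against siCtrl, 20 had such a difference, and the largest were *RPL13A* (−0.48), *RPL10* (−0.42) and *RPL28* (−0.39). Their log2 fold changes with Srf were lower in siATF4 cells. So were those of 25.6% of the members, 21.8% of all genes tested and 17.5% of genes at the 20 CPM floor. Groups of 2 libraries were too small to look for a library apart from the rest of its group.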

How the results depend on the processing

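The counts of ribosomal protein genes called in the 7 comparisons and 2 differences of effects were recomputed under 10 other settings and without each library: 281 recomputed counts stayed within 1.5 times the reported count and 71 did not. No count of the lower genes with siY/T in DMSO (69), the higher genes with siATF4 (66 and 44) or the higher genes with Srf in siY/T cells (69) moved by more. Of 105 named values of members past the threshold, 79 passed it in every setting and 0 reversed. With quantile normalization, 1 gene was higher with siY/T in DMSO and 4 in Srf, 3 were lower with siATF4 in DMSO, 40 were higher and 1 lower with Srf in siCtrl cells, 4 were higher with Srf in siATF4 cells, and 31 differed in Srf effect for siATF4. With TMM scaling, 0 were higher with siY/T in Srf, 14 higher and 4 lower with Srf in siCtrl cells, and 12 differed for siATF4. Without the filter on low values, 0 were higher with siY/T in Srf, 4 lower with Srf in siATF4 cells, and 10 and 13 differed for siY/T and siATF4. A fit of only the groups compared gave 2 higher with siY/T in Srf, 46 higher and 5 lower with Srf in siCtrl cells, 12 lower with Srf in siATF4 cells, and 9 and 41 differing. DESeq2 gave 0 higher with siY/T in Srf. Of 15 pairs of groups, 4 had a correlation of deviations between libraries of the same number over 0.1 (range −0.28 to 0.19). Over the members alone 9 of 15 did (−0.28 to 0.55). With 1 deviation per group, the check cannot decide whether the numbers pair the groups. With the replicate number as a block, 0 were higher with siY/T in Srf and 4 lower with Srf in siATF4 cells, and the other counts stayed within 1.5 times.

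With each library left out in turn, the lower genes with siY/T in Srf numbered 19 to 47 and the higher 0 to 2, the lower with siATF4 in DMSO 1 to 5, the higher and lower with Srf 16 to 39 and 1 to 2 in siCtrl cells and 1 to 3 and 3 to 14 in siATF4 cells, and the lower with Srf in siY/T cells 0 to 1. Differing Srf effects numbered 5 to 47 for siY/T and 10 to 35 for siATF4. The members' median for Srf in siATF4 cells (−0.03) ranged from −0.051 to 0.0014, the last without siATF4 Srf replicate 1, where the sign reversed. Where a library or the filter was changed the set of samples or genes differed by construction; for the other settings the cause was not tested. The p-values rest on 1 spread per gene shared by the 6 groups, to which each group of 2 libraries gives 1 difference. Leaving out a library of a group not compared therefore changed that spread and left the fold changes as they were.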
